A study of Homo sapiens with 14 samples.

Results

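The comparison described here sets the change seen with a KSR inhibitor in Jurkat cells against the change seen with guides to *KSR2*, gene by gene, in 1 contrast over all 14 libraries of the series. The contrast is the inhibitor effect (log2 change from DMSO to inhibitor) minus the guide effect (log2 change from the non-targeting control to the mean of both guides). A positive value means that the inhibitor effect lay above the guide effect. It was computed for every expressed gene, 18963 of the 61541 genes in the table, and no gene was chosen by its values.

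Jurkat is a human T-cell acute lymphoblastic leukaemia line that expresses TAL1, and every group is derived from it. Cells received the KSR inhibitor APS-2-79 (KSRi, n = 3) or its solvent (DMSO, n = 3), or carried a non-targeting guide (NT, n = 2), *KSR2* guide 1 (n = 3) or *KSR2* guide 2 (n = 3). The sources disagree on the genetic method: sample titles name a CRISPR knockout, the design text names CRISPR interference, and the control's library names speak of a hairpin. The sources used here give no dose, exposure time, guide sequence or time in culture, nor do they say whether each replicate was its own culture. The p-values therefore reflect only how much these samples vary, and that variation may be technical. In bulk RNA, fewer cells in a state and less RNA per cell cannot be told apart.

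KSR2 and its close relative KSR1 are scaffold proteins that hold RAF, MEK and ERK kinases together, so that RAF can pass its signal to MEK. APS-2-79 is described as a ligand of the KSR kinase-like domain that stabilises its inactive state, whereas a guide that removes the transcript removes the whole scaffold. ERK raises the transcription of its own inhibitors, the SPRY, SPRED and DUSP genes. Several other programmes named below have well known regulators: SREBP factors drive genes of sterol and fatty acid synthesis when membrane sterol is low, ATF4 drives amino acid synthesis and transport genes, FOXO factors act when PI3K and AKT signalling is low, and MYC drives genes of ribosome assembly.

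Libraries held 21710466 to 45897075 counts, and 23315 to 25902 genes had a count in the DMSO and KSRi libraries against 25951 to 27739 in the NT and guide libraries. The 10 T-cell markers examined were present in every library, while 5 of 5 myeloid and 5 of 5 erythroid markers lay under 1 CPM (counts per mega-count of the scaled library) throughout. Of the B-cell markers, *CD79A* stood at 21.8 to 67.9 CPM and the other 4 lay under 1 CPM. *COL1A1*, at 5.86 to 13.2 CPM, was the 1 fibroblast or epithelial marker of 6 above 1 CPM, and it moved with KSRi: it read 8.66, 10.6 and 13.2 CPM in KSRi and at most 8.19 in the 11 others, with a contrast of 0.81 ± 0.20 (adjusted p = 0.0061). The summed level of these 6 markers was 8.83 to 13.4 CPM in KSRi and 6.12 to 8.69 CPM elsewhere, and its part in the results was not tested. KSRi replicate 1 stood apart: its chi-square per degree of freedom against the other KSRi libraries was 36.0 and 49.9, against 5.83 to 26.1 for the other pairs of replicates. The NT and DMSO controls differed from each other at 12477 genes (65.8% of those tested, 6568 higher and 5909 lower in NT). With upper-quartile scaling, which moved the median NT against DMSO difference of all genes from 0.04 to 0.25 on the log2 scale, that split was 8283 against 4187. Whether cells received solvent or a guide, and which experiment they belonged to, cannot be told apart, so the contrast compares changes from each experiment's own control and not levels.

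The inhibitor effect differed from the guide effect at 5431 genes (28.6%) in edgeR's quasi-likelihood test at an adjusted p of 0.05. It lay above the guide effect at 3139 genes (16.6%) and below it at 2292 (12.1%). A difference of at least 2-fold was found at 992 genes in the first direction (5.23%) and 421 in the second (2.22%). With guide 1 alone 4884 genes (25.8%) were called, and with guide 2 alone 4870 (25.7%). Both single-guide contrasts called 2507 genes higher (13.2%) and 1665 lower (8.78%). The count depended on single libraries: it was 3366 without NT replicate 1, of which 3276 are among the 5431, and 7377 without KSRi replicate 1.

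Both sides of the contrast were very unequal in size. KSRi differed from DMSO at 7712 genes (40.7%), whereas the mean of both guides differed from NT at 3 genes (0.0158%), all lower, with 788 genes (4.16%) at an unadjusted p under 0.05. Of those 3, *KSR2* is the target. *GNPNAT1*, an enzyme of hexosamine synthesis, stood at 50.8 and 51.3 CPM in NT, 55.03, 48.7 and 53.2 with guide 1 and 22.4, 22.9 and 26.6 with guide 2. It was lower in the guide 2 libraries than in all others, whereas guide 1 overlapped NT. Its inhibitor effect of −0.42 lay below the guide 1 effect, by −0.46 (adjusted p = 0.014), and above the guide 2 effect, by 0.67 (adjusted p = 0.0011). These opposite differences average to the 0.10 (adjusted p = 0.54) of the contrast with the mean of both guides. The third has no symbol in the tables used here, and its level rested on NT replicate 2, with 0.290 and 2.25 CPM in the NT libraries.

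**Figure D1:**
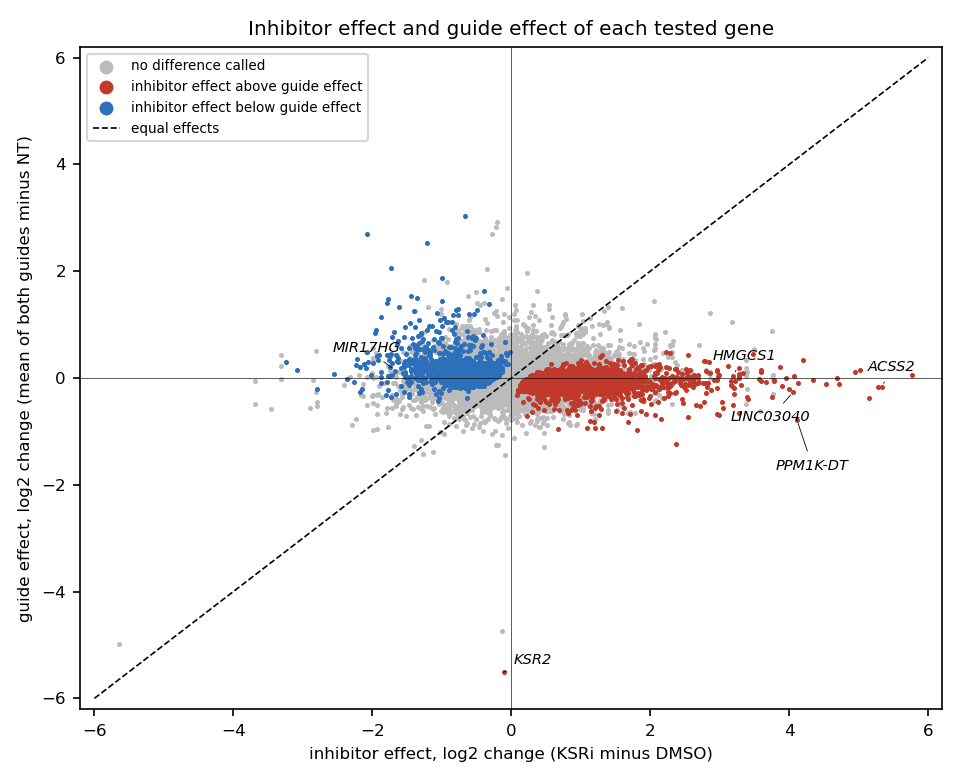
Inhibitor effect (x axis, log2 change from DMSO to KSRi) and guide effect (y axis, log2 change from NT to the mean of both guides) of the 18963 tested genes. Each point is a gene, red where the inhibitor effect lay above the guide effect (3139 genes), blue where it lay below (2292) and grey where no difference was called; the dashed line marks equal effects, and *KSR2* lies far below the other red points, at a guide effect of −5.51.

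The guide libraries bounded the guide effect of many inhibitor-changed genes. Of the 1475 genes that changed at least 2-fold with KSRi (1051 higher, 5.54% of those tested, and 424 lower, 2.24%), 1434 (97.2%) had a 95% interval of the guide effect that excluded a change as large as the inhibitor's. For 1145 genes (77.6%) the interval excluded 50% of the inhibitor's log2 change, and for 721 (48.9%) it excluded 25%. The 50% bound was reached by 892 of the 1051 higher genes (84.9%) and by 253 of the 424 lower genes (59.7%). Genes that did not reach it were scarce: the median of their highest group level was 0.624 CPM, against 2.81 CPM for the genes that did. Among the 439 genes left by a filter of 5 CPM in 3 libraries, 433 were bounded (98.6%). The inhibitor's change was taken at its estimate, without its error, and the genes were selected by that estimate. Its median SE was 0.26 for the 1051 higher and 0.36 for the 424 lower genes, so these shares may be too high.

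Inhibitor and guide effects rest on different libraries, so they can be set side by side. For the 1051 genes that rose at least 2-fold with KSRi, the median inhibitor effect was 1.43 and the median guide effect −0.03. The guide effect was above 0 in 441 of them (42.0%), against 48.5% of all tested genes. For the 424 genes that fell at least 2-fold, the medians were −1.29 and 0.08, and the guide effect was above 0 in 258 (60.8%). Over the 445 of these genes with at least 5 CPM, Pearson's r between the effects was −0.33 and Spearman's rho −0.30, with a slope of −0.04. Across genes this is a description only, since genes share libraries and are not independent replicates. Without NT replicate 1 the r was −0.18, and without NT replicate 2 it was −0.33.

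*KSR2* (ENSG00000171435, chromosome 12, 117453012 to 117968983, GRCh38) was the gene with the lowest p. It stood at 34.8, 39.3 and 36.7 CPM in DMSO, 33.5, 35.6 and 33.6 in KSRi and 30.1 and 28.97 in NT, and at 0.664, 0.453 and 0.507 with guide 1 and 0.822, 0.730 and 0.746 with guide 2. All 6 guide libraries lay below the other 8, and the KSRi libraries overlapped DMSO. The inhibitor effect was −0.11 (adjusted p = 0.28) and the guide effect −5.51, which gave a contrast of 5.40 ± 0.14 (SE, adjusted p = 3.8e-14). The inhibitor libraries thus held *KSR2* transcript near the level of their control, and the guide libraries did not.

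The paralogue *KSR1* (ENSG00000141068, chromosome 17, 27456470 to 27626438) read 21.9, 21.7 and 21.5 CPM in DMSO and 27.9, 32.3 and 35.9 in KSRi. It read 30.9 and 29.8 in NT, 29.3, 29.4 and 28.3 with guide 1 and 28.8, 26.99 and 29.3 with guide 2. The KSRi libraries lay above DMSO, and overlapped the range of NT and guide libraries. The contrast was 0.64 ± 0.12 (adjusted p = 0.00073), from an inhibitor effect of 0.56 and a guide effect of −0.08 with a 95% interval of −0.25 to 0.09.

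Of the 21 listed genes of the KSR, RAF, MEK and ERK cascade, 6 had an inhibitor effect above the guide effect and 2 below. The share called was 38.1%, against 28.6% of all tested genes. The 6 include *KSR2*, the target of the guides, whose call came from its guide effect of −5.51 and not from an inhibitor effect. The list's median contrast was −0.04, against 0.03 for all tested genes. *MAP2K2*, which encodes the kinase MEK2, rose with KSRi by 0.32 and had a guide effect of −0.22 (unadjusted p = 0.0019), giving 0.54 ± 0.09 (adjusted p = 0.00024). It read 167, 154 and 159.7 CPM in DMSO, 188, 214 and 197 in KSRi, 164 and 154 in NT, 131, 129 and 129 with guide 1 and 141, 143 and 145 with guide 2. The KSRi libraries lay above the other 11. *SOS2*, an exchange factor that activates RAS, gave 0.55 ± 0.12 (adjusted p = 0.0026), but its KSRi mean of 56.04 CPM lay below the 74.2 CPM of NT. *ARAF* (0.66, adjusted p = 0.0039) and *MAPK3*, which encodes ERK1 (0.82, adjusted p = 0.0039), were the remaining higher members. *NF1*, which turns RAS off, and *NRAS* were the lower ones, at −0.38 (adjusted p = 0.0075) and −0.34 (adjusted p = 0.019).

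Of 14 tested ERK output and feedback genes, 5 had an inhibitor effect below the guide effect and 0 above, with a list median of −0.25. The share called was 35.7%, against 28.6% of all tested genes, and 4 of the 5 were called with each guide alone. *SPRED1*, which holds NF1 at the membrane, read 25.4, 26.1 and 26.6 CPM in DMSO, 14.9, 14.1 and 14.6 in KSRi, 26.2 and 26.6 in NT, 25.4, 28.3 and 26.5 with guide 1 and 28.4, 29.03 and 27.2 with guide 2. The 3 KSRi libraries lay below all others, and the remaining 11 overlapped. Its contrast was −0.90 ± 0.10 (adjusted p = 8.3e-06), and the 95% interval of the guide effect, −0.09 to 0.20, excluded a fall like the inhibitor's −0.84.

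*SPRY4*, which restrains signalling from receptor tyrosine kinases to RAS, was scarce, at 1.38, 1.65 and 1.40 CPM in DMSO, 0.235, 0.353 and 0.430 in KSRi and 3.11 and 2.62 in NT. Guide libraries read 2.49, 2.66 and 2.66 and 2.71, 2.03 and 2.33. KSRi was again below all 11 others, and the contrast was −1.95 ± 0.30 (adjusted p = 9.9e-05). *SPRED2* followed at −0.61 ± 0.11 (adjusted p = 0.00053) with the KSRi libraries lowest of all, at 31.5, 35.4 and 32.5 CPM. *DUSP2*, a phosphatase of ERK, gave −0.68 ± 0.15 (adjusted p = 0.0032) with a different order of levels: 50.8 CPM in DMSO and 29.1 in KSRi, but 14.2 in NT and 12.6 and 13.7 with the guides. *DUSP6* was the fifth, at −0.78 (adjusted p = 0.036). *SPRY1* (−0.27), *SPRY2* (0.00), *DUSP5* (−0.18) and *ETV5* (0.42) were among the 9 that missed the threshold.

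Immediate early genes, which encode transcription factors induced quickly by signals, did not move as a block. Of 19 tested, 6 had an inhibitor effect above the guide effect and 2 below (42.1% called, against 28.6%). *JUN*, a subunit of the AP-1 factor, read 10.8, 9.69 and 9.55 CPM in DMSO and 16.3, 17.9 and 17.9 in KSRi. It read 11.7 and 10.98 in NT, 8.20, 8.63 and 8.79 with guide 1 and 9.53, 9.47 and 9.04 with guide 2. KSRi lay above all others, and the guide libraries lay below NT, so that a rise of 0.80 and a guide effect of −0.34 (unadjusted p = 0.00055) gave 1.14 ± 0.11 (adjusted p = 2.3e-06). *JUND* gave 1.13 ± 0.11 (adjusted p = 2.7e-06), and *ATF3*, a stress-induced factor, 1.60 ± 0.16 (adjusted p = 2.5e-06). *NR4A1*, an orphan nuclear receptor induced by T-cell receptor signals, had the opposite sign at −0.74 ± 0.13 (adjusted p = 0.00075). *FOS* (−0.10), *EGR1* (0.19) and *JUNB* (0.12) were not called.

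**Figure D2:**
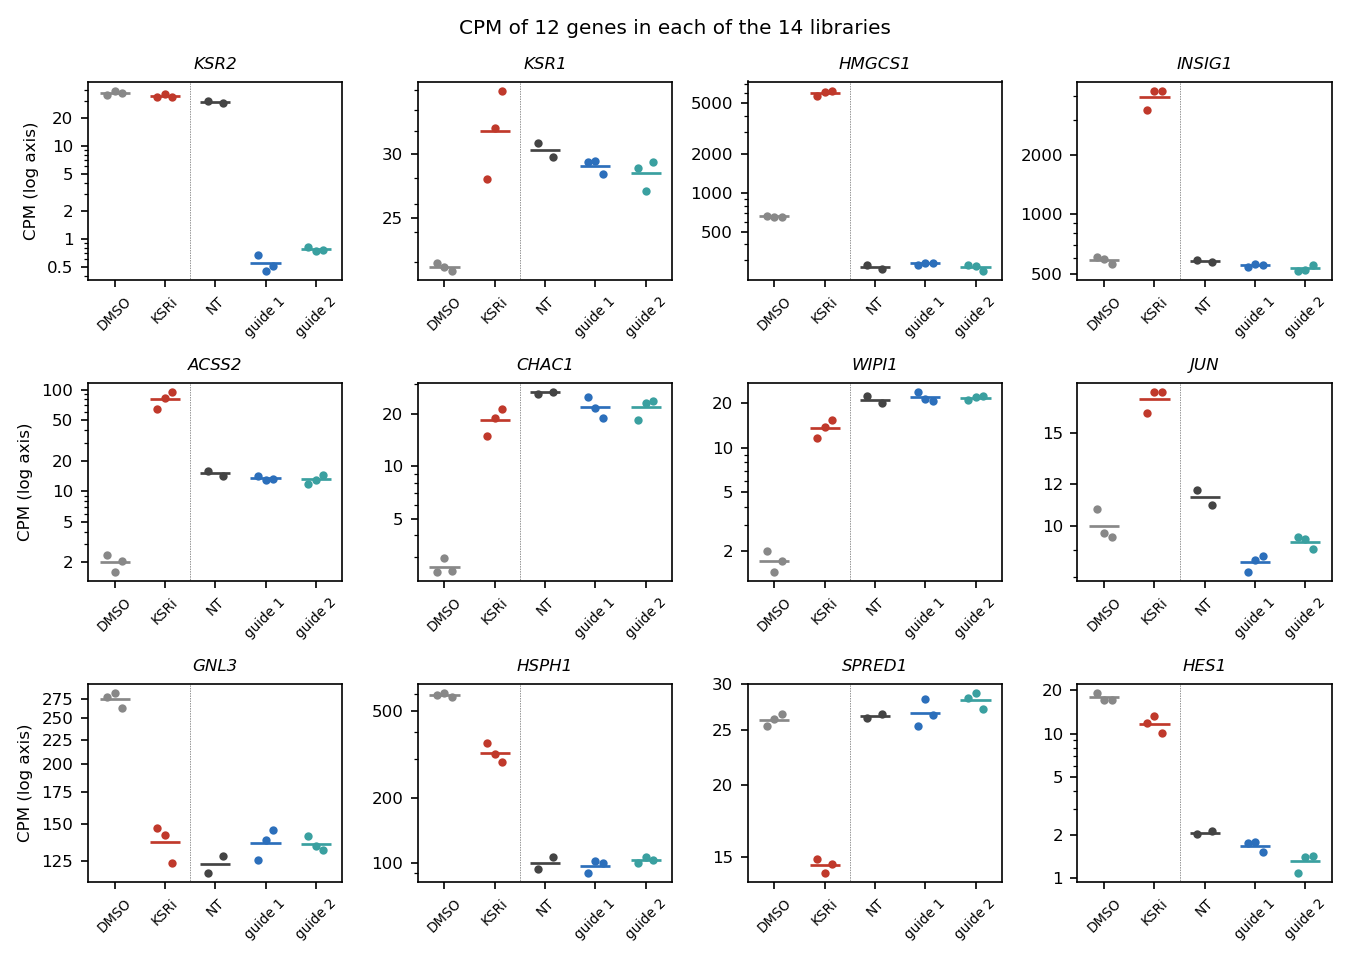
CPM of 12 genes in each of the 14 libraries, on log axes that differ between panels and do not start at 0. Points are libraries and bars group means; the dotted line separates the inhibitor experiment (DMSO, KSRi) from the guide experiment (NT, guide 1, guide 2). *KSR2* was low only in the 6 guide libraries, *SPRED1* only in the 3 KSRi libraries, and *WIPI1* and *HSPH1* show controls far apart.

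Among the gene lists, which were chosen with earlier results of these data known, the clearest block was sterol synthesis. Of 23 tested cholesterol synthesis or uptake genes, 95.7% were called, against 28.6% of all tested genes. All but 1 of the 23 had an inhibitor effect above the guide effect (22 higher, 0 lower, median 2.14), also with each guide alone. Their guide effects ran from −0.26 to 0.05, and 0 were called. In all 22 the 3 KSRi libraries lay above the other 11, which was true of 7.58% of tested genes. A call in the contrast, which contains the KSRi level, itself favours that position. The exception was *PMVK* (0.25, adjusted p = 0.34), a mevalonate pathway kinase.

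*HMGCS1* (ENSG00000112972, chromosome 5, 43289395 to 43313512), which makes the precursor of mevalonate, read 668, 651 and 655 CPM in DMSO, 5675, 6099 and 6281 in KSRi, 274 and 258 in NT, 278, 287 and 286 with guide 1 and 276, 272 and 249 with guide 2. KSRi was far above all others, and the NT and guide libraries shared 1 range below DMSO. The contrast was 3.15 ± 0.10 (adjusted p = 1.4e-12), a ratio of 8.86 between the fold changes, and the guide effect's 95% interval was −0.10 to 0.19. *MSMO1*, an oxidase of the later sterol steps, gave 2.92 ± 0.10 (adjusted p = 5.0e-12). *INSIG1*, which retains the SREBP complex in the endoplasmic reticulum, gave 2.85 ± 0.12 (adjusted p = 3.0e-11), with group means of 584 CPM in DMSO, 3950.04 in KSRi, 579 in NT and 550.2 and 532 with the guides. Here the controls stood at 1 level, so that the difference in change was also a difference in level. The largest contrast of the list was that of *MVD*, the decarboxylase of the mevalonate pathway, at 3.75 (adjusted p = 7.8e-11).

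*SREBF2*, which encodes the sterol-regulated factor itself, was 1 of the 22 (1.40, adjusted p = 1.9e-07). Promoters from RefSeq (GRCh38.p14) were searched from 250 bases before to 50 after each gene's start, on both strands, for a 9-base sterol regulatory element (TCACNCCAC). Of the 15987 tested genes with a symbol, 11755 had a promoter in the table. Of 16 called sterol genes with a promoter, 1 held this motif, *SREBF2*, and 135 of the 11755 promoters did (1.15%). Its promoter is shown because it carries the motif, in capitals, 133 bases before the start, and is printed 5′ to 3′ to 30 bases after the start (GRCh38.p14, chr22:41832855-41833134, plus strand).
SREBF2: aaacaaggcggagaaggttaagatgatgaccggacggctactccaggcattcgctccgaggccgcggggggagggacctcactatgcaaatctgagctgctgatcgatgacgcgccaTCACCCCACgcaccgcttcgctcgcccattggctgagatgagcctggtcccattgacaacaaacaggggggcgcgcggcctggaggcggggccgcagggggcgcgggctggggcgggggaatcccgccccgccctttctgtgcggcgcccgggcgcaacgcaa

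Fatty acid synthesis moved with it: 10 of 11 tested genes had an inhibitor effect above the guide effect and 0 below (median 1.48). The share called was 90.9%, against 28.6% of all tested genes. *ACSS2* (ENSG00000131069, chromosome 20, 34872146 to 34927962), an enzyme that turns acetate into acetyl-CoA, had the largest contrast of all genes named here, 5.50 ± 0.21 (adjusted p = 1.2e-11). It read 2.35, 1.62 and 2.07 CPM in DMSO and 64.7, 82.1 and 95.8 in KSRi. In the guide experiment it read 16.00 and 14.1 in NT, 14.3, 12.99 and 13.3 with guide 1 and 11.7, 13.04 and 14.6 with guide 2. KSRi was above all others, but NT and the guides lay well above DMSO. *FASN*, the fatty acid synthase, had the reverse baseline, with 732 CPM in DMSO, 3716 in KSRi, 212 in NT and 208 and 201 with the guides, and a contrast of 2.39 ± 0.17 (adjusted p = 3.1e-08). *ACLY* (cytosolic acetyl-CoA from citrate) gave 2.24 ± 0.14 and *SCD* (fatty acid desaturation) 2.10 ± 0.12, with adjusted p of 4.9e-09 and 2.5e-09. Of 8 tested genes listed for the oxysterol receptor LXR, 4 were higher and 0 lower (50% called, against 28.6% of all tested genes). The lowest p was that of *LPCAT3*, a phospholipid-remodelling enzyme, at 0.98 ± 0.12 (adjusted p = 1.5e-05). *MYLIP* gave 0.86, from an inhibitor effect of 0.41 and a guide effect of −0.45. *NR1H3* (0.83) and *NR1H2* (0.34, adjusted p = 0.033) encode forms of the receptor itself. *NR1H2* lost the call without a low-count filter, and without DMSO replicates 2 or 3, KSRi replicates 2 or 3, or guide 1 replicate 3. It also lost the call without NT replicate 1 (0.37) or NT replicate 2 (0.30), where 1 NT library remained. Fatty acid oxidation had 3 of 16 higher and 1 lower, so that 4 of 16 were called, a share below the 28.6% of all tested genes.

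Genes of the ATF4 amino acid response were higher in 17 of 23 and lower in 0 (73.9% called, against 28.6% of all tested genes). The list had a median contrast of 0.85 and a median guide effect of −0.06. Here changes and levels came apart: of the 17, the KSRi libraries lay above all 8 NT and guide libraries for 1 gene, below all 8 for 8 genes and overlapped them for 8. *CHAC1*, which degrades glutathione, read 2.47, 2.98 and 2.48 CPM in DMSO, 14.97, 19.1 and 21.5 in KSRi, 26.3 and 26.98 in NT, 24.98, 21.8 and 19.1 with guide 1 and 18.4, 23.3 and 23.9 with guide 2. DMSO stood alone at the bottom, NT stood at the top, and KSRi overlapped the guides. The contrast was 3.08 ± 0.21 (adjusted p = 1.3e-08). *SLC7A11*, the cystine transporter, gave 1.64 ± 0.13 (adjusted p = 1.1e-07) with 58.7 CPM in KSRi and 55.7 in NT, against 17.9 in DMSO. *VLDLR*, a lipoprotein receptor, gave 1.56 ± 0.11 (adjusted p = 2.0e-08) with 22.9 CPM in DMSO, 64.8 in KSRi and 154 in NT. *ATF4* itself had a contrast of 0.92 (adjusted p = 1.5e-05).

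A core amino acid response element (TGATGNAA, either strand) was present in 4 of 19 promoters of this list, against 208 of 11755 among tested genes (1.77%). The *CHAC1* promoter is shown as the gene of the list with the lowest p, a choice made after its values were seen. The element, in capitals, is read on the opposite strand and begins 209 bases before the start (GRCh38.p14, chr15:40953221-40953500, plus strand).
CHAC1: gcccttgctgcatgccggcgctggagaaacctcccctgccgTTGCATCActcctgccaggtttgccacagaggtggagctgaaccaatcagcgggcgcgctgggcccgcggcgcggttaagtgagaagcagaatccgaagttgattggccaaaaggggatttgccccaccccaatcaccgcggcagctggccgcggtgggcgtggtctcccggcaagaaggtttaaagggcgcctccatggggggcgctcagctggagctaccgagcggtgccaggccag

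Genes that FOXO factors induce, or that PI3K signalling restrains, were higher in 15 of 24 and lower in 0 (median 0.49). Of this list 62.5% was called, against 28.6% of all tested genes. *PIK3IP1*, an inhibitor of PI3K, read 0.796, 0.794 and 1.06 CPM in DMSO, 8.16, 8.12 and 8.92 in KSRi, 3.76 and 3.44 in NT, 3.03, 3.06 and 2.97 with guide 1 and 3.90, 3.08 and 3.05 with guide 2. KSRi lay above all other libraries, and the contrast was 3.39 ± 0.20 (adjusted p = 2.5e-09). *SESN3*, a stress-induced inhibitor of mTORC1, gave 1.67 ± 0.09 (adjusted p = 1.2e-09), and *ARRDC3*, an arrestin-like protein, 1.59 ± 0.10 (adjusted p = 1.1e-08). *ARRDC3* had like controls, at 12.1 CPM in DMSO and 12.2 in NT, and 38.1 in KSRi. The forkhead motif TGTTTAC was found in 4 of 23 promoters of the list and 277 of 11755 tested promoters (2.36%).

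Of 20 p53 target genes, 10 were higher and 2 lower (60% called, against 28.6% of all tested genes). For 4 of the 12 called, the KSRi libraries lay above all 8 NT and guide libraries. They overlapped them for 3 and lay below all 8 for 5. Whether p53 drove these changes was not tested. *TP53INP1*, a stress-induced regulator of autophagy and cell death, read 5.49, 5.46 and 5.85 CPM in DMSO and 31.3, 32.4 and 38.96 in KSRi, against 43.7 and 38.99 in NT, 39.7, 44.9 and 42.7 with guide 1 and 39.96, 42.3 and 42.9 with guide 2. KSRi rose from DMSO towards the level of the guide experiment, and NT and guides overlapped each other. The contrast was 2.58 ± 0.13 (adjusted p = 3.4e-10). *CDKN1A*, the cell cycle inhibitor p21, gave 1.32 ± 0.21 (adjusted p = 0.00027) at 1.90 CPM in DMSO, 4.42 in KSRi and 3.05 in NT.

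Lysosome and autophagy genes were higher in 10 of 24 and lower in 0 (41.7% called, against 28.6% of all tested genes). The leading members did not share a pattern of levels. *WIPI1*, which binds forming autophagosomes, read 2.01, 1.46 and 1.71 CPM in DMSO, 11.7, 13.8 and 15.4 in KSRi, 22.3 and 20.1 in NT, 24.1, 21.4 and 20.9 with guide 1 and 21.02, 21.99 and 22.4 with guide 2, so that KSRi lay between DMSO and the guide experiment. Its contrast was 2.94 ± 0.17 (adjusted p = 2.1e-09). *NEU1*, the lysosomal sialidase, read 104, 129 and 154 in KSRi and between 23.8 and 35.4 CPM in all 11 other libraries, giving 1.83 ± 0.16 (adjusted p = 3.5e-07). *NPC2* and *NPC1*, which carry cholesterol out of the lysosome, gave 1.74 ± 0.18 and 1.19 ± 0.13, with adjusted p of 3.1e-06 and 7.3e-06, and both had KSRi above all others.

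An E-box (CACGTG, which is its own reverse complement) was present in 6 of 17 promoters of the lysosome list and 7 of 21 of the ribosome assembly list described next, against 1160 of 11755 tested promoters (9.87%). The promoters of *NEU1* and *WDR43* are shown as the genes of those lists with the lowest p that hold the motif, a choice made after their values were seen. The motif is in capitals, 126 bases before the start of *NEU1* (GRCh38.p14, chr6:31862792-31863071, minus strand) and 3 bases after the start of *WDR43* (chr2:28894417-28894696, plus strand).
NEU1: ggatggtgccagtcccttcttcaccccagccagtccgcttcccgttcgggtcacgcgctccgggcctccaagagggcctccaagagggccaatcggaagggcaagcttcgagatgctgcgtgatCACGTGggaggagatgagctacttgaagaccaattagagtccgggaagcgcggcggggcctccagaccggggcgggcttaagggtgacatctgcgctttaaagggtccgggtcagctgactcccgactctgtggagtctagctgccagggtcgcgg
WDR43: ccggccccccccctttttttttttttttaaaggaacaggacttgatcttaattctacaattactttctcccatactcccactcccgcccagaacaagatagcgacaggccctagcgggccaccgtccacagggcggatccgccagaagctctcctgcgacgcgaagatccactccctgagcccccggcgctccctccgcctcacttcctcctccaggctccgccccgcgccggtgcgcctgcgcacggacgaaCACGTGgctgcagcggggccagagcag

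Of 26 ribosome assembly genes, 21 had an inhibitor effect below the guide effect and 0 above (80.8% called, against 28.6% of all tested genes). The list's median contrast was −0.69 and its median guide effect −0.04. *GNL3*, a nucleolar GTPase, read 277, 284 and 263 CPM in DMSO, 147, 142 and 124 in KSRi, 118 and 128 in NT, 126, 138 and 146 with guide 1 and 141, 135 and 132 with guide 2. DMSO alone was high, and KSRi, NT and guide libraries overlapped. The contrast was −1.14 ± 0.11 (adjusted p = 1.4e-06). *WDR43*, which acts early in processing of ribosomal RNA, gave −0.96 ± 0.11 (adjusted p = 1.8e-05) although its KSRi mean of 106 CPM lay above the 64.9 CPM of NT. *NPM1*, the nucleolar protein nucleophosmin, gave −0.82 ± 0.10 (adjusted p = 1.7e-05). In 17 of the 21 the KSRi libraries lay above all 8 libraries of the guide experiment and in 0 below all 8, while they fell from DMSO.

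Heat shock and chaperone genes were lower in 15 of 19 and higher in 0 (median −0.61, 78.9% called, against 28.6% of all tested genes). In 14 of the 15 the KSRi libraries lay above all 8 NT and guide libraries, and in 1 below all 8. *HSPH1*, a cochaperone of HSP70, read 593, 607 and 576 CPM in DMSO, 358, 317 and 290.00 in KSRi, 94.5 and 107 in NT, 90.5, 102 and 99.98 with guide 1 and 100.2, 107 and 104 with guide 2. The groups formed 3 steps, with the guide experiment lowest. The contrast was −0.88 ± 0.11 (adjusted p = 3.6e-05). *HSPD1*, the mitochondrial chaperonin, gave −0.90 ± 0.10 (adjusted p = 6.0e-06), and *TCP1*, a subunit of the cytosolic chaperonin, −0.75 ± 0.10 (adjusted p = 4.3e-05). *CHORDC1*, a cochaperone of HSP90, gave −1.40 ± 0.16 (adjusted p = 1.2e-05).

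Of 24 mitotic genes 10 were lower and 0 higher (41.7% called, against 28.6% of all tested genes). The lowest p was that of *KIF23*, a kinesin of cell division, at −0.62 ± 0.11 (adjusted p = 0.00045), and the largest contrast that of *CENPE*, a kinesin of the kinetochore, at −1.27 ± 0.40 (adjusted p = 0.029). *CDK1* gave −0.51 ± 0.11 and *PLK1* −0.45 ± 0.10, both mitotic kinases, with adjusted p of 0.0023 and 0.0039. Of 24 replication genes 6 were lower and 1 higher, a share of 29.2% that is near the 28.6% of all tested genes. The higher one was *CDT1*, which licenses replication origins, at 0.79 ± 0.13 (adjusted p = 0.0003), and *RFC3*, a clamp loader subunit, was lower at −0.72 ± 0.13 (adjusted p = 0.00075).

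Glycolysis and hypoxia genes split, with 7 of 24 higher and 3 lower (41.7% called, against 28.6% of all tested genes). *ALDOC*, an aldolase, read 9.72, 10.3 and 9.45 CPM in DMSO, 64.3, 84.6 and 93.9 in KSRi, 36.7 and 29.2 in NT, 25.1, 22.4 and 23.01 with guide 1 and 26.9, 24.2 and 23.97 with guide 2. KSRi was above all others and the guide libraries lay below both NT libraries, so that a guide effect of −0.44 (unadjusted p = 0.0014) added to a rise of 3.04. The contrast was 3.48 ± 0.17 (adjusted p = 2.7e-10). *VEGFA*, the vascular growth factor, gave 2.09 ± 0.09 (adjusted p = 8.2e-11) with KSRi at 82.1 CPM, NT at 73.2 and DMSO at 21.2. *LDHA*, lactate dehydrogenase, went the other way at −0.61 ± 0.10 (adjusted p = 0.00027).

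**Figure D3:**
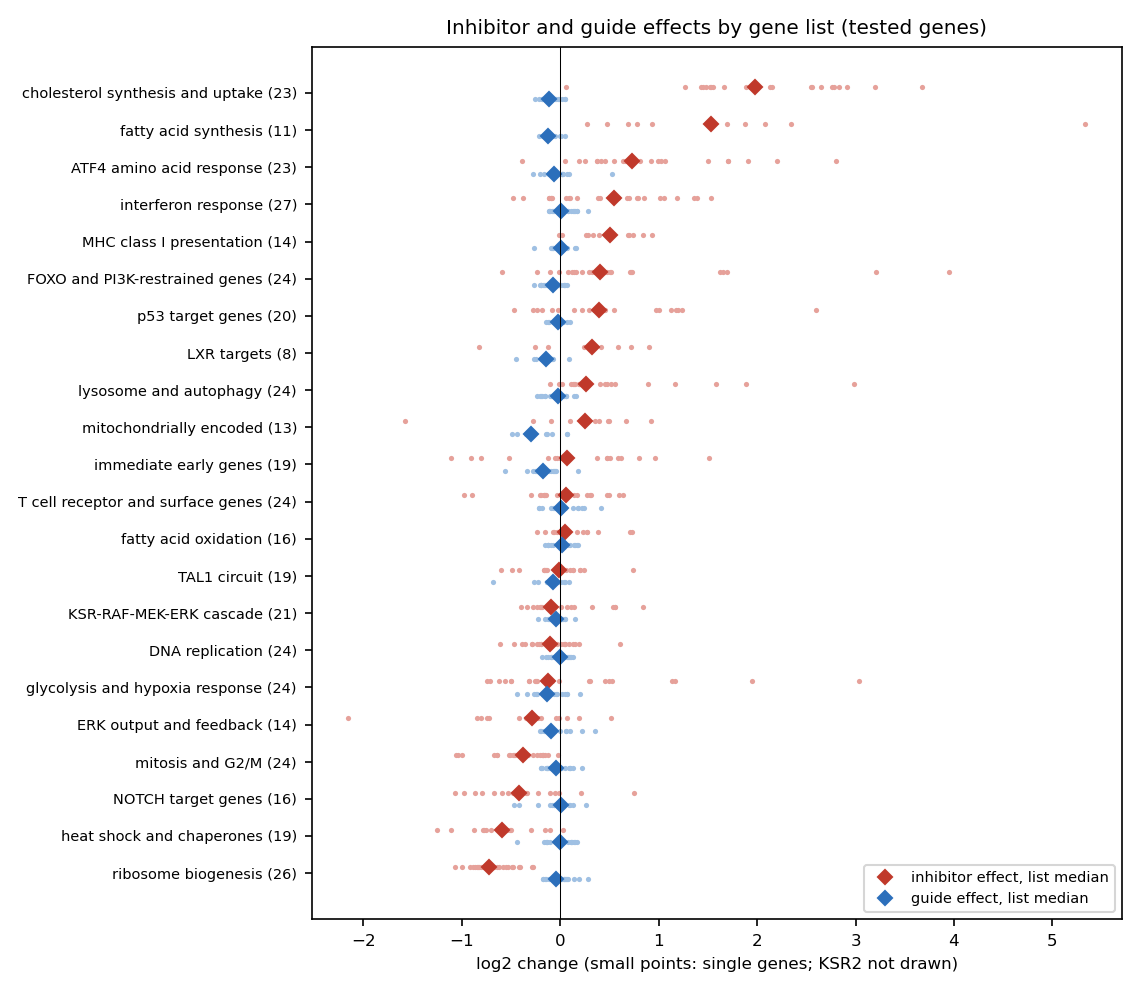
Inhibitor effects (red) and guide effects (blue) of the tested genes of 22 lists, on a log2 scale; small points are genes, diamonds are list medians and the number of tested genes is in brackets. Medians of the inhibitor effect ran from −0.72 (ribosome biogenesis) to 1.98 (cholesterol), and those of the guide effect from −0.30 (mitochondrially encoded) to 0.02.

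The TAL1 circuit, the transcription factors that define this leukaemia subtype and their targets, had 3 of 19 higher and 2 lower, a share of 26.3% called that is near the 28.6% of all tested genes. With each guide alone 1 was higher and 1 lower. *UBE2H*, an E2 ubiquitin enzyme, was the member with the lowest p, at 0.81 ± 0.11 (adjusted p = 6.0e-05). The other higher ones, the transcription factors *GATA3* at 0.47 (adjusted p = 0.04) and *RUNX1* at 0.28 (adjusted p = 0.046), each lost the call in 9 of the 14 fits that left out 1 library. For both these were the fits without DMSO replicates 2 or 3, KSRi replicate 2, NT replicate 1 (adjusted p = 0.13 and 0.25), guide 1 replicates 2 or 3 and guide 2 replicates 1 or 2, to which NT replicate 2 adds for *GATA3* and DMSO replicate 1 for *RUNX1*. With a replicate block both lost it (adjusted p = 0.075 for *GATA3* and 0.072 for *RUNX1*). *RUNX1* also lost it with RLE scaling (0.052), without a low-count filter (0.099) and with scaling within each experiment. The lower ones were the kinase *CDK6* at −0.50 (adjusted p = 0.012), which lost the call without NT replicate 1 (adjusted p = 0.069), and *LMO1*, a partner of TAL1, at −0.50 (adjusted p = 0.0498). *TAL1* itself was not called at −0.23 (adjusted p = 0.073), nor was *MYB* (−0.30). NOTCH targets were lower in 7 of 16 and higher in 1 (8 of 16 called, against 28.6% of all tested genes). *DTX1*, a regulator of NOTCH, gave −0.58 ± 0.12 (adjusted p = 0.0015) at 127 CPM in DMSO, 79.9 in KSRi and 34.2 in NT. *PTCRA*, the pre-T-cell receptor chain, gave −1.11 ± 0.21 (adjusted p = 0.0011). Of 24 T-cell receptor and surface genes 3 were higher and 2 lower (20.8% called, below the 28.6% of all tested genes). The costimulatory receptor *CD28* was among the higher at 0.55 ± 0.10 (adjusted p = 0.00078). *RAG1*, the recombinase of antigen receptor genes, was among the lower at −0.67 ± 0.11 (adjusted p = 0.00037).

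Interferon response genes were higher in 13 of 27 and lower in 0 (48.1% called). Class I presentation genes were higher in 8 of 14 and lower in 0 (57.1%, both against 28.6% of all tested genes). Of the 13, the KSRi libraries lay above all 8 NT and guide libraries for 6, overlapped them for 3 and lay below for 4. For class I, they lay above all 8 for 1 gene, overlapped for 1 and lay below for 6. *IRF7*, a master factor of interferon induction, read 4.10, 4.20 and 4.27 CPM in DMSO, 8.73, 10.4 and 13.6 in KSRi, 14.8 and 13.7 in NT, 14.3, 13.7 and 13.1 with guide 1 and 13.6, 11.4 and 12.8 with guide 2. KSRi stood above DMSO and overlapped the guide experiment, and the contrast was 1.48 ± 0.18 (adjusted p = 1.8e-05). *MX2*, an antiviral GTPase, gave 1.11 ± 0.14 and *ISG20*, an antiviral exonuclease, 0.86 ± 0.14, with adjusted p of 2.9e-05 and 0.00032. *TAPBP*, which loads peptides on class I molecules, gave 0.59 ± 0.12 (adjusted p = 0.002). Class I heavy chain genes share reads with near-identical copies, so their single values are uncertain.

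Outside the lists, the largest positive contrasts beside *ACSS2* and *KSR2* belonged to *TTN*, *PPM1K-DT*, *LINC03040*, *IL21R*, *PRUNE2* and *L3MBTL2-AS1*. *LINC03040* (ENSG00000181577, chromosome 6, 44000580 to 44005958) read 60.98, 55.2 and 57.2 CPM in DMSO, 759.7, 971 and 1161 in KSRi, 109 and 96.5 in NT, 94.97, 86.1 and 77.9 with guide 1 and 86.3, 81.1 and 88.2 with guide 2. KSRi was above all others and the guide libraries below NT, for a contrast of 4.32 ± 0.17 (adjusted p = 1.7e-11). *IL21R*, the interleukin 21 receptor, gave 4.20 ± 0.32 (adjusted p = 4.1e-08) with 0.977 CPM in DMSO, 15.5 in KSRi and 7.23 in NT. *TTN*, the giant muscle protein, gave 5.44 ± 0.74 (adjusted p = 4.2e-05) with 7.92, 4.31 and 4.35 CPM in KSRi and under 1 CPM elsewhere. *L3MBTL2-AS1* gave 3.84 ± 0.47 (adjusted p = 1.3e-06), but its 2.07 CPM in KSRi lay far below the 27.6 CPM of NT. It is antisense to another gene, and without a stated strand setting their reads cannot be told apart.

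Among the largest negative contrasts were those of *MIR17HG*, *GPR17*, *SNHG4*, *MT-ND6*, *ESF1*, *TNFRSF4* and *CHORDC1*. *MIR17HG*, host transcript of the miR-17 to miR-92 cluster and a target of MYC, read 22.2, 25.2 and 24.2 CPM in DMSO, 11.1, 6.05 and 5.00 in KSRi, 3.73 and 4.58 in NT, 4.41, 4.58 and 4.78 with guide 1 and 4.93, 4.59 and 4.43 with guide 2. KSRi fell from DMSO, with replicate 1 highest of the 3, and all KSRi libraries lay above the guide experiment. The contrast was −1.81 ± 0.28 (adjusted p = 0.00018). *TNFRSF4*, the costimulatory receptor OX40, gave −1.40 ± 0.31 (adjusted p = 0.0027), which became −0.90 (adjusted p = 0.055) without NT replicate 2. *MT-ND6*, a complex I subunit read from the opposite strand to most mitochondrial genes, gave −1.44 ± 0.13 (adjusted p = 8.2e-07) with 12.7, 12.3 and 11.8 CPM in KSRi and 22.2 to 39.6 CPM in the 11 others. The other 12 mitochondrially encoded genes tested had contrasts above 0, of which *MT-CO2* was called (1.23, adjusted p = 0.047). Mitochondrial transcripts made up 1.12% to 2.71% of counts, a share whose part in these values was not tested.

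**Figure D4:**
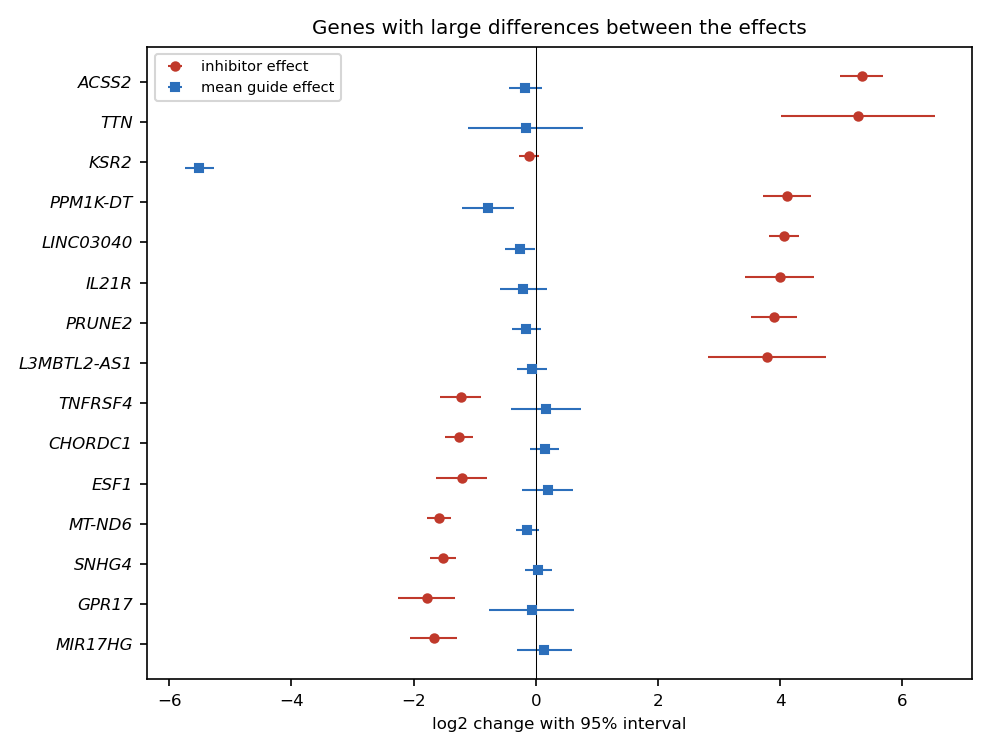
Inhibitor effect (red circles) and mean guide effect (blue squares) of 15 genes among those with the largest contrasts in each direction, as log2 changes with 95% intervals from the edgeR fit. *KSR2* is the gene whose guide effect is large, at −5.51; for the 7 genes at the bottom the inhibitor effect is negative and the guide interval reaches 0.

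In a few genes the contrast was called while the inhibitor effect was not. Among the 11255 tested genes with at least 5 CPM and a symbol there were 119 such genes, 65 higher and 54 lower. After *KSR2*, the lowest p in the positive direction was that of *RAP1GAP*, which turns off the small GTPase RAP1, at 0.39 ± 0.10 (adjusted p = 0.0062), and 0.33 (adjusted p = 0.053) without NT replicate 1. *TAF9*, a subunit of the general transcription factor TFIID, read 71.1, 63.5 and 67.96 CPM in DMSO, 61.5, 60.1 and 55.5 in KSRi, 59.03 and 68.6 in NT, 87.5, 70.1 and 82.3 with guide 1 and 79.7, 79.8 and 86.7 with guide 2. All guide libraries lay above NT, with a guide effect of 0.34 (unadjusted p = 0.0011) and a contrast of −0.53 ± 0.12 (adjusted p = 0.0041). *ESD*, an esterase, read 76.8 and 94.2 CPM in NT against 151, 123 and 159.6 and 151, 124 and 109 with the guides and 144, 182 and 178 in DMSO. Its contrast was −0.76 ± 0.18 (adjusted p = 0.0053), and −0.62 (adjusted p = 0.055) without NT replicate 1. *COQ3*, an enzyme of ubiquinone synthesis, gave −0.57 ± 0.14 (adjusted p = 0.0076).

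Of the 11255 tested genes with at least 5 CPM and a symbol, 232 (2.06%) had a called inhibitor effect and a guide effect at an unadjusted p under 0.05. The effects had opposite signs with a call in the contrast in 137 (1.22% of the 11255, 73 with a rise under KSRi and 64 with a fall) and without one in 0. They shared a sign without a call in 72 (0.64%, 27 with a rise and 45 with a fall) and with a call in 23. Opposite signs make the contrast larger and so favour its call, and the guide p is unadjusted, so these counts are a description only. *PPM1K-DT*, a long non-coding RNA, led the opposite-sign genes that rose with KSRi, with 0.628, 0.694 and 0.725 CPM in DMSO, 10.5, 12.3 and 13.2 in KSRi, 1.01 and 1.16 in NT, 0.758, 0.878 and 0.700 with guide 1 and 0.701, 0.496 and 0.417 with guide 2. KSRi was above all others, and guide 2 had the lowest mean. Its guide effect was −0.78 (unadjusted p = 0.0016) and its contrast 4.89 ± 0.28 (adjusted p = 2.8e-09). *ARHGAP11B* led those that fell, at −1.39 ± 0.18 (adjusted p = 4.8e-05) with a guide effect of 0.30 (unadjusted p = 0.031); it is a partial copy of *ARHGAP11A*, so reads may be split between them. *WDR75*, another ribosome assembly gene, had an inhibitor effect of −0.83 and a guide effect of 0.18 (unadjusted p = 0.019).

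Among the 72 genes whose effects shared a sign, with no call in the contrast, *HES1*, a repressor induced by NOTCH, read 19.3, 17.2 and 17.2 CPM in DMSO, 11.9, 13.2 and 10.2 in KSRi, 2.03 and 2.12 in NT, 1.75, 1.78 and 1.52 with guide 1 and 1.10, 1.41 and 1.43 with guide 2. In each experiment the perturbed libraries lay below their control, with effects of −0.59 and −0.47, and the contrast was −0.11 ± 0.18 (adjusted p = 0.76). The guide effect had an unadjusted p of 0.0069 and was not called after adjustment. *NFKBIB*, an inhibitor of NF-κB, had an inhibitor effect of −0.60 and a guide effect of −0.32 (unadjusted p = 0.0018), with a contrast of −0.28 ± 0.12 (adjusted p = 0.1). *SAT1*, which acetylates polyamines, was higher in both, by 0.84 and 0.39 (unadjusted p = 0.0051), with a contrast of 0.46 ± 0.17 (adjusted p = 0.057). That of *SAT1* passed the threshold when DMSO replicate 3, KSRi replicate 1 or guide 1 replicate 3 was left out, at 0.55, 0.56 and 0.51. A contrast that misses the threshold does not show that the effects were equal.

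Levels and changes were compared over all called genes. Of the 3139 genes whose inhibitor effect lay above the guide effect, the KSRi libraries lay above all 8 NT and guide libraries for 1044 (33.3%), overlapped them for 1067 (34.0%) and lay below all 8 for 1028 (32.7%). Over all tested genes these shares were 28.4%, 43.4% and 28.2%. Of the 2292 in the other direction, KSRi lay below all 8 for 527 (23.0%) and above all 8 for 809 (35.3%). KSRi was above all 11 other libraries in 986 of the 3139 (31.4%, against 7.58% of tested genes) and below all 11 in 472 of the 2292 (20.6%, against 4.75%). Both sets were chosen by a contrast in which the KSRi level is a term, which favours such positions. These shares are therefore a description only. The 22 called sterol genes, *SPRED1*, *SPRED2* and *NR4A1* had KSRi outside the range of all 11 other libraries, whereas *WIPI1*, *VLDLR*, *TP53INP1* and most ribosome assembly and chaperone genes did not.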

How the data were processed

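RNA sequencing of polyadenylated RNA was compared in 14 Jurkat libraries. The authors deposited raw whole-number counts for each Ensembl gene. STAR 2.7.11b, DESeq2 1.42.1 and GRCh38 are named in the submitters' processing notes. The counting program, its strand setting and its annotation release are not given here, and they affect overlapping, antisense and near-identical genes. The table listed 61541 genes, with 25747 at 0 in all libraries, and 172 identifiers matched no symbol. Positions are from GENCODE 29.

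Counts were tested with edgeR 4.0.16 (R 4.3.3), which fitted 1 mean per group to all 14 libraries after filterByExpr and TMM scaling. The spread was thus estimated over all groups, since NT held only 2 libraries. Contrasts were tested by the quasi-likelihood F test with Benjamini-Hochberg adjustment over 18963 genes at a threshold of 0.05. The common biological coefficient of variation was 8.6%. The contrast's SE had a median of 0.17 on the log2 scale. Depth, 21710466 to 45897075 counts, made 10 counts equal to 0.461 CPM in the smallest library. CPM uses TMM-scaled totals, ± is the SE of a log2 difference and intervals are 95% intervals from the fit. Replicates differed by more than sampling noise and were kept separate. The procedure was tested on simulated data, but no outcome is given here, so this adds no support to the calls.

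The text names *KSR2* and *KSR1*, the 8 called genes per direction with the largest contrast (at least 5 CPM in the highest group, a symbol, and a call with each guide alone), up to 5 per direction called in the contrast and not with KSRi, up to 4 per direction with a shared sign and up to 4 with opposite signs, and up to 4 called members with the lowest p per list. In the cascade, feedback and TAL1 lists, these 4 did not need a call. Further list members were named after their values were seen. The gene lists, motifs and tests were chosen with earlier results of these data known. Not every gene that the rule names is reported here.

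The settings varied were the scaling (RLE, upper-quartile), leaving out the low-count filter or asking for 5 CPM in 3 libraries, tests by limma-voom (limma 3.58.1) and DESeq2 1.42.0, a replicate block, dropping each library, and stricter calls (adjusted p under 0.01, or at least 2-fold). TMM within each experiment and voom with a variance weight per group were added after seeing the data.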

Additional observations from a re-analysis of the deposited data

Results flagged for a closer look

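The inhibitor effect and the guide effect differed in a direct test of their difference. This edgeR quasi-likelihood test called 5431 of 18963 genes, 3139 with the inhibitor effect above the guide effect and 2292 with it below. No group held 4 or more libraries, so no library was tested as an outlier within its group.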

How the results depend on the processing

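Inhibitor and guide effects differed at 5431 of 18963 tested genes in the main fit. Without a low-count filter they differed at 5432 of 35794, and with 5 CPM in 3 libraries at 4544 of 11600. Shares of tested genes thus differ more than the counts do, and 4693 of the 5432 were among the 5431. The number of genes whose inhibitor and guide effects differed, 5431, was 4544 to 5511 under the other scalings, filters and tools and the replicate block, including those added after seeing the data. It was 2908 at an adjusted p under 0.01, 1413 with a change of at least 2-fold (70.2% higher, against 57.8%), and 3366 (without NT replicate 1) to 7377 (without KSRi replicate 1) when single libraries were left out. With guide 1 the count of 4884 became 2532, 1375 and 3003 to 7086. With guide 2 the count of 4870 became 2535, 1336 and 3053 to 6939. KSRi against DMSO had 1475 genes at 2-fold or more and 6209 to 8928 with a library left out. NT against DMSO had 5292, and 10722 to 13207. The 3 genes of the guides against NT became 41 without a low-count filter, 9 with DESeq2, 1 with limma-voom, 1 at an adjusted p under 0.01, 5 with voom and a variance weight per group, and 1 to 5 with a library left out. Dropping guide 1 replicates 1 or 3, or guide 2 replicates 1 or 2, gave 1 gene, and dropping KSRi replicate 1 gave 5. Genes whose guide effect was bounded numbered 433 of 439 (98.6%) under the filter of 5 CPM in 3 libraries, against 1145 of 1475 (77.6%). With a DMSO, KSRi or guide library left out, the lowest share was 75.3% (1084 of 1440, without guide 2 replicate 3). The highest was 84.9% (1121 of 1321, without DMSO replicate 3). With either NT library left out, 1 NT library remained and the share was lower than in each of these fits.

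Of 2686 values for 117 named genes under these settings, 2623 kept their direction and side of the threshold, 49 (15 genes) lost the call, 14 (4 genes) gained one and 0 changed sign. The replicate numbers did not pair the libraries: same-numbered deviations correlated at −0.18 to 0.11. With a replicate block the contrast called 4733 genes (4211 with guide 1, 4218 with guide 2), KSRi against DMSO 7217, the guides against NT 2 and NT against DMSO 11958, and 1110 genes were bounded. The fit gives all groups 1 spread, whereas voom gave KSRi a weight of 0.496 and the other groups 1.05 to 1.39. DESeq2 and voom were not run for the bounded genes, nor scaling within each experiment for NT against DMSO.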
